A study of Mus musculus with 6 samples.

Results

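The 5 subunits of the transcription factor NF-κB (Rela, Relb, Rel, Nfkb1 and Nfkb2) and 5 genes of the inhibitor of NF-κB (I-κB) family (Nfkbia, Nfkbib, Nfkbie, Nfkbid and Bcl3) were followed as mRNA in naive CD4+ T cells of the mouse spleen. The 10 genes were chosen by name as members of the 2 families, with earlier results of these data known. They were found among 55487 gene identifiers by matching each to its symbol in GENCODE vM21. All 10 passed the filter on low counts, which left 11950 genes for testing. The study compared 3 libraries from untreated mice with 3 libraries from mice given rapamycin in vivo. All 6 libraries came from wild-type C57BL6/J animals, and rapamycin inhibits mTOR, a kinase that couples growth factor and nutrient signals to cell growth. The dose, the length of treatment and the age of the mice are not given in the sources used here, and no label states that each library had its own mouse. The p-values therefore measure only how far these libraries spread, which may be a technical matter.

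NF-κB acts as a dimer of Rel-homology proteins. Rela, Relb and Rel carry a domain that activates transcription, whereas Nfkb1 and Nfkb2 encode the precursors p105 and p100, which are processed to the DNA-binding subunits p50 and p52. In a resting T cell the classical I-κB proteins, encoded by Nfkbia (I-κBα), Nfkbib (I-κBβ) and Nfkbie (I-κBε), hold dimers in the cytoplasm until the I-κB kinase (IKK) complex marks them for destruction. Nfkbid (I-κBNS) and Bcl3 encode nuclear, atypical family members that bind p50 or p52 dimers on DNA and modulate transcription. In T cells the antigen receptor reaches IKK through adaptors that include BCL10 and MALT1. Much of this control acts on the proteins and was not measured here.

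The libraries held between 8757280 and 11393317 expected counts, the read counts that RSEM assigns to a gene, and a floor of 3 counts lay between 0.26 and 0.348 CPM, which are counts scaled for library depth. Levels within a gene are given as CPM, after TMM scaling unless stated. Levels between genes are given as TPM, in which transcripts are also scaled for their length. Cd4 stood at 716 ± 11.6 CPM without and 687 ± 9.29 CPM with rapamycin (SD, n = 3 each), and Cd3e, a chain of the T cell receptor complex, at 357 ± 3.54 and 348 ± 3.15 CPM. Of the 10 naive CD4 T cell markers 4 were called higher and 5 lower: Trac, the constant segment of the receptor's α chain, was at 678 ± 9.33 and 391 ± 4.67 CPM, Cd3d at 347 ± 3.38 and 275 ± 8.67 CPM, and Cd3g at 369 ± 6.6 and 295 ± 6.44 CPM. B cell markers were also present: the 10 fixed genes summed to between 668 and 716 CPM in untreated and between 659 and 691 CPM in rapamycin libraries, with 0 genes called higher and 2 lower. The 12 myeloid markers summed to between 100.5 and 108 CPM against 55.0 to 57.0 CPM, with 0 higher and 10 lower, and the 7 plasma cell markers to between 93.3 and 94.6 against 56.8 to 61.1 CPM, with 1 higher and 5 lower. The 2 CD8 markers, both called higher, summed to between 19.1 and 20.5 CPM against 87.9 to 91.0 CPM. The 8 markers of activated, memory and regulatory T cells summed to between 137 and 142 CPM against 121 to 126 CPM, with 3 higher and 2 lower of 7 tested and a median log2 fold change of 0.57. Cd44 (33.7 ± 2.31 and 10.7 ± 0.185 CPM) and Cd69 (71.5 ± 0.613 and 61.2 ± 2.38 CPM) were the 2 lower ones. Il2rb (21.3 ± 0.565 and 31.6 ± 2.8 CPM), Ikzf2 (4.46 ± 0.41 and 7.56 ± 1.38 CPM) and Ctla4 (3.64 ± 1.13 and 6.37 ± 0.511 CPM) were the 3 higher ones. NF-κB genes are transcribed in B, plasma and myeloid cells as well, and the part of these cells in the results that follow was not tested. In bulk RNA, fewer cells of a type and less RNA per cell cannot be told apart.

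With rapamycin the 5 subunit genes did not pass the test, while 4 of the 5 I-κB genes did, in opposite directions. Nfkbia rose 1.11-fold, and Nfkbib, Nfkbie and Bcl3 fell to 0.72, 0.79 and 0.52 times their untreated level. Among the 10 genes, 1 was thus called higher and 3 were called lower, at an adjusted p under 0.05 by edgeR's quasi-likelihood test. Over all tested genes 47.4% were called, 24.1% higher and 23.3% lower, so that 4 of 10 is close to the share of genes in general and the number of calls is not a result about the family. The median log2 fold change, rapamycin over untreated, was -0.07 over the 10 genes and -0.01 over all genes tested. It was -0.03 over the 5 subunits and -0.35 over the 5 I-κB genes.

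**Figure D1:**
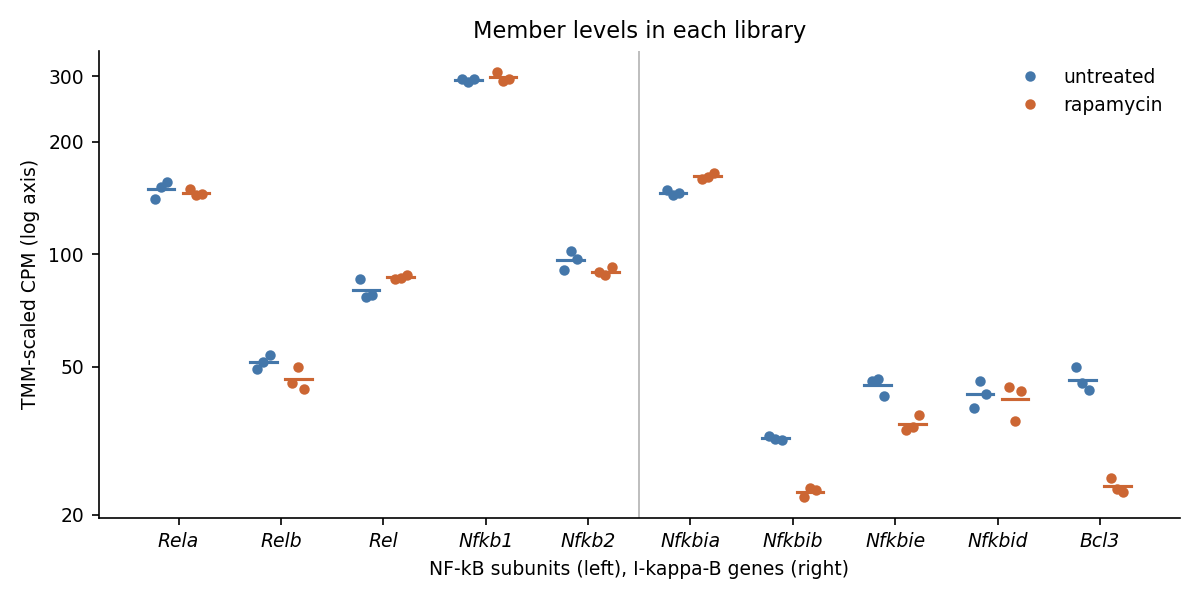
Level of each of the 10 genes in CPM (vertical axis, log scale) in the 3 untreated and 3 rapamycin libraries; each point is a library and each short line a group mean. The 3 rapamycin libraries lie below the 3 untreated libraries for Nfkbib, Nfkbie and Bcl3 and above them for Nfkbia and, by a narrow gap, Rel.

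Among the subunits that activate transcription, Rela encodes p65, the main partner of p50 in classical signalling, and lies on chromosome 19 (mm10, 5637483 to 5648130, plus strand; ENSMUSG00000024927). It was at 141, 151 and 156 CPM in the untreated libraries and at 149.9, 144 and 145 CPM in the rapamycin libraries. The rapamycin values lay inside the untreated range, and the log2 fold change was -0.03 ± 0.04 (SE; adjusted p = 0.589, edgeR). In limma fits on the deposited TPM, which moved the median of all genes by 0.10, it was 0.20 and called (adjusted p = 0.0112 with a pseudocount of 1).

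Relb, the subunit that pairs with p52 in the alternative pathway, lies on chromosome 7 (19606217 to 19629438, minus strand; ENSMUSG00000002983). Its levels were 49.3, 51.5 and 53.8 CPM without and 45.3, 50 and 43.5 CPM with rapamycin. Only the second rapamycin library reached the untreated range. The log2 fold change of -0.15 ± 0.07 had an adjusted p of 0.0521 by edgeR, just past the threshold on the side that is not called. In 6 of 18 alternative fits Relb was called lower, among them those without the first untreated library (-0.19, adjusted p = 0.0358) and without the second rapamycin library (-0.21, adjusted p = 0.0145).

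Rel encodes c-Rel, a lymphocyte subunit induced by antigen receptor signals, and lies on chromosome 11 (23736847 to 23770970, minus strand; ENSMUSG00000020275). It stood at 85.7, 76.7 and 77.8 CPM in untreated and at 85.8, 86.4 and 88.1 CPM in rapamycin libraries. The groups did not overlap, but the first untreated library stood apart from the other two and almost touched the lowest rapamycin library. The log2 fold change was 0.11 ± 0.05 with an adjusted p of 0.0631 by edgeR. Without the first untreated library it was 0.16, with an adjusted p of 0.017.

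Of the precursor genes, Nfkb1 lies on chromosome 3 (135584655 to 135691547, minus strand; ENSMUSG00000028163) and had the highest CPM of the 10. Its levels were 295, 289.7 and 295 CPM in untreated and 308, 291 and 295 CPM in rapamycin libraries. Apart from the first rapamycin library these values were nearly level, and the log2 fold change was 0.03 ± 0.03 (adjusted p = 0.482, edgeR).

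Nfkb2 lies on chromosome 19 (46304320 to 46312385, plus strand; ENSMUSG00000025225). It was at 90.5, 102 and 97.0 CPM without and 89.4, 87.9 and 92.2 CPM with rapamycin. The groups overlapped through the first untreated library, and the log2 fold change was -0.10 ± 0.05 (adjusted p = 0.0865, edgeR). Without the first untreated library it was -0.15 and called (adjusted p = 0.0185). Nfkb2 shares 531 exon bases with AC114539.1 and 299 with Psd, both on the opposite strand. Without TMM scaling these were at 11.8 to 15.6 and 7.67 to 10.3 CPM over the 6 libraries. Whether counting used strand is not given in the sources used here, so that reads of these genes may be split between them.

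Among the classical inhibitors, Nfkbia lies on chromosome 12 (55489410 to 55492647, minus strand; ENSMUSG00000021025) and encodes the inhibitor that is resynthesised after each round of NF-κB activation. It stood at 149, 144 and 146 CPM in untreated and at 159, 161 and 165 CPM in rapamycin libraries. Every rapamycin library was above every untreated one. Its mean rose from 146 ± 2.68 to 162 ± 3.32 CPM (SD, n = 3), a log2 fold change of 0.15 ± 0.04 (adjusted p = 5.2e-04, edgeR).

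Nfkbib, the inhibitor that is degraded and replaced more slowly, lies on chromosome 7 (28758251 to 28767512, minus strand; ENSMUSG00000030595). Its levels were 32.6, 31.9 and 31.7 CPM without and 22.4, 23.6 and 23.3 CPM with rapamycin. The spread within each group was small beside the gap, and the log2 fold change was -0.47 ± 0.09 (adjusted p = 6.1e-06, edgeR). It shares 42 exon bases with Sirt2 on the opposite strand. Without TMM scaling Sirt2 was at 54.9, 54.3 and 56.0 CPM in untreated and 53.9, 52.3 and 52.6 CPM in rapamycin libraries. The TMM factors were 1.014 in untreated and 0.9849 to 0.9873 in rapamycin libraries. No group difference is read from these unscaled values.

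Nfkbie lies on chromosome 17 (45555703 to 45563169, plus strand; ENSMUSG00000023947) and encodes an inhibitor that binds mainly dimers holding Rela or Rel. It was at 45.7, 46.3 and 41.7 CPM in untreated and at 33.7, 34.5 and 37.0 CPM in rapamycin libraries. The groups did not overlap, and the mean fell from 44.6 ± 2.51 to 35.1 ± 1.68 CPM (SD, n = 3). The log2 fold change was -0.35 ± 0.07 (adjusted p = 6.4e-05, edgeR).

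The nuclear members differed from each other. Bcl3, on chromosome 7 (19808462 to 19822770, minus strand; ENSMUSG00000053175), encodes a coregulator that binds p50 and p52 dimers and was first known as an oncogene of B cell leukaemia. Its levels were 49.8, 45.2 and 43.3 CPM without and 25.2, 23.5 and 23.1 CPM with rapamycin. The highest rapamycin library was far below the lowest untreated library. The mean fell from 46.1 ± 3.32 to 23.9 ± 1.15 CPM (SD, n = 3), with a log2 fold change of -0.95 ± 0.08 (adjusted p = 1.1e-15, edgeR), the largest change among the 10 genes.

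Nfkbid, also on chromosome 7 (30421732 to 30428746, plus strand; ENSMUSG00000036931), encodes a nuclear protein needed for the development of some lymphocyte subsets. It stood at 38.8, 45.8 and 42.3 CPM in untreated and at 44, 35.8 and 42.9 CPM in rapamycin libraries. The groups lay across each other, and the log2 fold change was -0.05 ± 0.08 (adjusted p = 0.639, edgeR). In CPM the groups did not overlap for 2 of the 10 genes in the higher direction (Rel and Nfkbia) and for 3 in the lower, beside 53.8% of all tested genes whose groups did not overlap.

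Fold changes over all genes moved with gene length, so each value was also read after a correction for length. With well expressed genes split into 10 bins of length, the bin medians of the log2 fold change went from -0.32 (median length 812 bases) up to 0.25 (6162 bases). The mean fragment length implied by the authors' length columns was 240.0 to 241 bases in untreated and 252 to 258 bases in rapamycin libraries, and its part in the trend was not tested. Nfkbia (1211 bases) and Nfkbib (1258 bases) fall in the bin whose median was -0.19, and Bcl3 (1610 bases) in one whose median was -0.13. With the correction the 4 calls among the I-κB genes held: the log2 fold change became 0.34 ± 0.04 for Nfkbia, -0.29 ± 0.09 for Nfkbib, -0.36 for Nfkbie and -0.84 ± 0.08 for Bcl3, with adjusted p-values of 1.1e-11, 0.00499, 6.3e-05 and 2.0e-13 by edgeR.

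Of the subunits, Rel has by far the longest transcript (7466 bases) and lies in the bin whose median was 0.25. Its log2 fold change turned from 0.11 to -0.19 ± 0.05 with the correction, and passed the threshold in the lower direction (adjusted p = 0.00245, edgeR). Nfkb2 (3063 bases) went from -0.10 to -0.15 ± 0.05 (adjusted p = 0.0127, edgeR). With single libraries left out as well, the call of Rel held in 5 of 6 fits and that of Nfkb2 in 4 of 6: Rel was at -0.13 (adjusted p = 0.0739) without the first untreated library, and Nfkb2 at -0.11 (adjusted p = 0.108) without the second untreated library and -0.13 (adjusted p = 0.0591) without the second rapamycin library. Rela was then at 0.00, Nfkb1 at -0.01, Relb at -0.13 and Nfkbid at 0.01, none of them called. The corrected fit thus called 1 member higher and 5 lower, beside 20.2% and 18.2% of all genes, 38.4% in either direction.

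**Figure D2:**
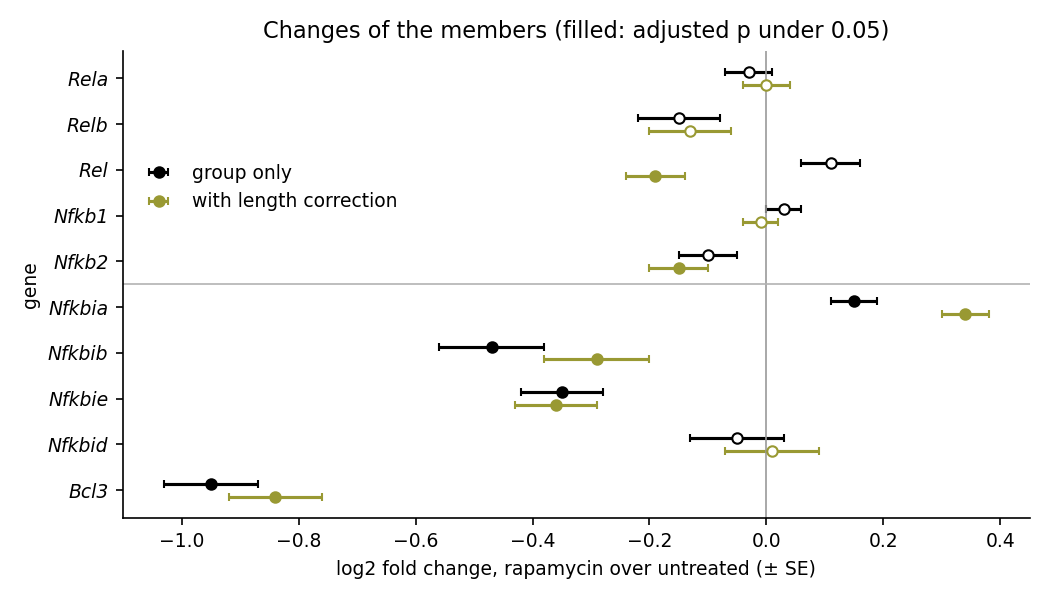
Log2 fold change, rapamycin over untreated (horizontal axis), of the 10 genes with its SE, before and after the correction for gene length; filled markers passed the adjusted p threshold of 0.05 and open ones did not. The 4 called I-κB genes keep their side of 0 in both fits, whereas Rel moves from 0.11 to -0.19.

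**Figure D3:**
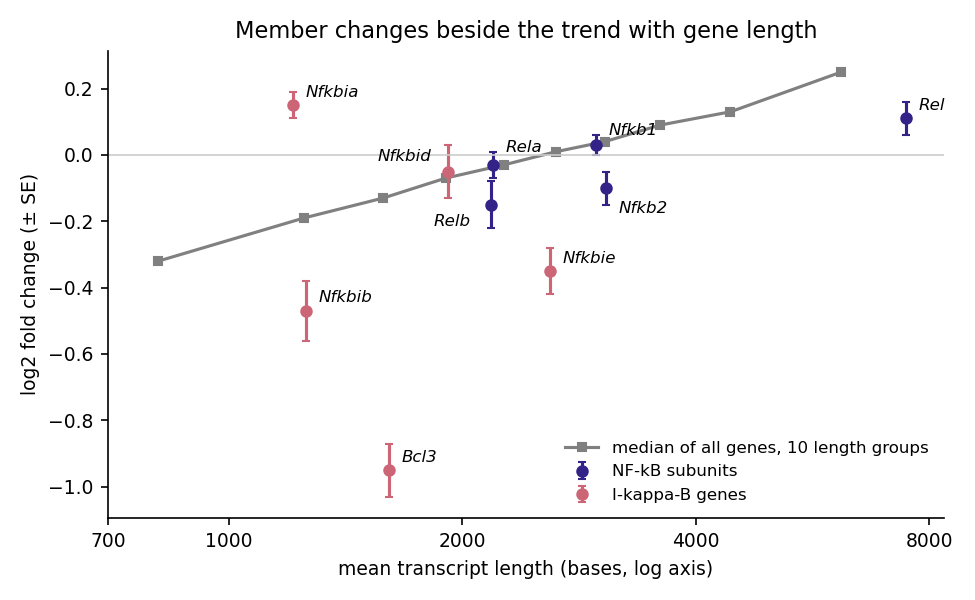
Median log2 fold change, rapamycin over untreated (vertical axis), in 10 bins of genes ordered by length in bases (horizontal axis, log scale), with the 10 genes drawn at their own length with their SE. The medians run from -0.32 to 0.25. Nfkbia lies above the line of medians at its length, and Bcl3, Nfkbib, Nfkbie, Rel, Relb and Nfkb2 lie below it. Rela, Nfkb1 and Nfkbid lie close to it.

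On the TPM scale, which allows levels of different genes to be compared, the family was led by Nfkbia and the classical subunits. Untreated cells held 196 ± 3.07 TPM of Nfkbia, 145 ± 3.41 of Nfkb1 and 96.3 ± 2.14 of Rela (SD, n = 3), each apart from its neighbours in every library. Nfkb2 (45.4 ± 2.97 TPM), Bcl3 (42.5 ± 1.88) and Nfkbib (41.7 ± 0.737) followed, and the libraries of Bcl3 overlapped those of both others, while Nfkb2 and Nfkbib did not overlap. Relb (34.1 ± 1.84 TPM) and Nfkbid (32.7 ± 4.68) overlapped as well, and Nfkbie (25.2 ± 1.39) and Rel (14.6 ± 0.896) were lowest. By mean TPM over the 6 libraries Nfkbia stood at percentile 95.8 of the tested genes, Nfkb1 at 93.3 and Rela at 89.6, while Rel stood at 43.5.

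With rapamycin the top of the order stayed as it was, with 239.7 ± 13.7 TPM of Nfkbia, 149.8 ± 2.16 of Nfkb1 and 111 ± 2.89 of Rela (SD, n = 3). Nfkb2 came next at 44.3 ± 1.23 TPM. Bcl3 was at rank 8, where it had been at rank 5, with 25.7 ± 1.31 TPM, below Nfkbid (34.9 ± 2.13), Relb (34.4 ± 1.37) and Nfkbib (32.0 ± 0.788). The neighbours Nfkbid and Relb overlapped, and Nfkbie (20.7 ± 0.98 TPM) and Rel (16.8 ± 0.24) remained the lowest of the 10.

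The balance of I-κB to subunit mRNA did not differ between the groups beyond the spread of the libraries, while the make-up of the I-κB sum differed without overlap. The 5 subunits summed to 329.9, 334 and 341 TPM in untreated and 354, 358 and 356 TPM in rapamycin libraries, and the 5 I-κB genes to 341, 342 and 331 TPM against 341, 348 and 370.0 TPM. Deposited TPM values are also higher in general with rapamycin: a fit on log2(TPM + 1) moved the median of all genes by 0.10 on the log2 scale. For every 100 TPM of subunit mRNA there were 103, 102 and 97.0 TPM of I-κB mRNA without and 96.5, 97.2 and 104 TPM with rapamycin. The means of 101 ± 3.43 and 99.2 ± 4.14 (SD, n = 3) differed by less than the spread between libraries (exact two-sided permutation p = 0.9). The difference of -1.65 was -3.87 with 1 fixed length per gene (102 ± 3.98 and 98.2 ± 2.7, overlapping groups, exact permutation p = 0.2) and ran from -4.03 to -0.3 when single libraries were left out. An exact test of 3 libraries against 3 cannot give a p below 0.1.

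Within the I-κB sum, Nfkbia took 58.5%, 56.7% and 58.7% in untreated and 66.6%, 68.3% and 68.7% in rapamycin libraries. Its mean share was 58.0 ± 1.09% and 67.9 ± 1.14% (SD, n = 3), 9.90 percentage points apart. Bcl3 took 13.1%, 12.3% and 12.4% against 7.98%, 7.13% and 6.80%. Nfkbib made up 12.3 ± 0.139% and 9.07 ± 0.282%, and Nfkbie 7.46 ± 0.283% and 5.87 ± 0.0843%. For each of these 4 genes the groups did not overlap and the exact permutation p was 0.1, the smallest possible (0.125 adjusted over 5 shares). Nfkbid held 9.68 ± 1.32% and 9.89 ± 0.612%, with overlapping groups (exact permutation p = 0.9). With 1 fixed length per gene in place of the authors' per-library lengths the differences were close to these, 9.83 points for Nfkbia and -5.85 for Bcl3.

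Set against Nfkbia itself, Bcl3 stood at 22.4, 21.7 and 21.0 TPM per 100 TPM of Nfkbia in untreated libraries and at 12.0, 10.4 and 9.89 in rapamycin libraries. Nfkbib stood at 21.3, 21.5 and 21.1 against 13.7, 13.7 and 12.8. Nfkbie stood at 12.9, 13.6 and 12.2 against 8.70, 8.73 and 8.54. These 3 ratios parted the groups without overlap, each with an exact permutation p of 0.1 (0.175 adjusted over 7 ratios). The ratio of Nfkbid to Nfkbia overlapped between groups, at 14.6, 19.6 and 16.0 against 15.8, 13.7 and 14.3.

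The shares among the subunits differed less and depended on the lengths used. Rela made up 28.8 ± 0.185% of subunit TPM in untreated and 31.1 ± 0.64% in rapamycin libraries (SD, n = 3; exact permutation p = 0.1, 0.25 adjusted over 5 shares). With 1 fixed length per gene this difference of 2.32 percentage points became -0.164. Nfkb1 made up 43.2 ± 0.854% and 42.1 ± 0.81%, a difference of -1.07 points that turned to 1.37 with fixed lengths. Nfkb2 made up 13.6 ± 0.881% and 12.4 ± 0.341%, Relb 10.2 ± 0.375% and 9.67 ± 0.348%, and Rel 4.35 ± 0.327% and 4.73 ± 0.0685%. Rel stood at 15.2 ± 1.24 and 15.2 ± 0.312 TPM per 100 TPM of Rela, and at 14.5 ± 1.64 and 16.0 ± 0.511 with fixed lengths. Nfkb1 stood at 150.1 ± 3.81 and 136 ± 5.46 TPM per 100 TPM of Rela without overlap, but at 140.3 ± 7.74 and 145 ± 0.839 with overlap when lengths were fixed.

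**Figure D4:**
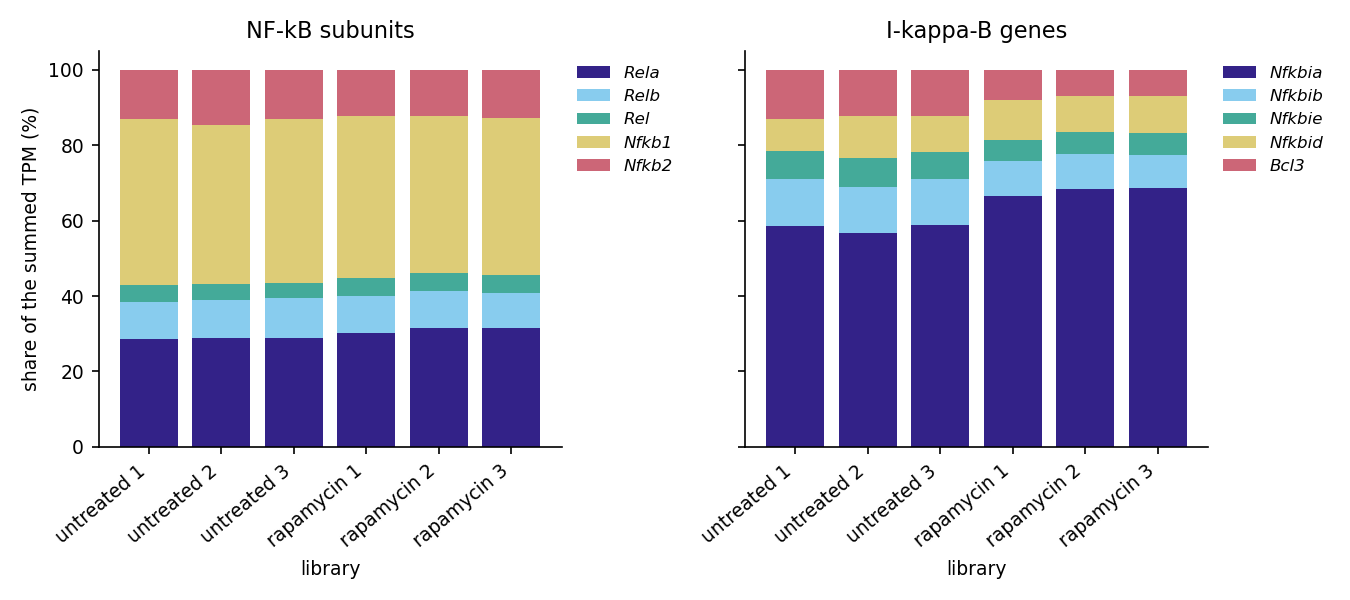
Share in percent (vertical axis, from 0) of each gene in the summed TPM of its family, as stacked bars that each stand for 1 of the 3 untreated or 3 rapamycin libraries (horizontal axis), with subunits in the left panel and I-κB genes in the right. The mean share of Nfkbia is 58.0% without and 67.9% with rapamycin and that of Bcl3 12.6% and 7.30%, while no subunit's mean share differs by more than 2.32 points.

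RSEM's mean transcript length for a gene varies between libraries as its estimate of the isoform mix does. That of Bcl3 was 1709, 1656 and 1632 bases in untreated and 1549, 1573 and 1539 bases in rapamycin libraries, without overlap. Relb was at 2243, 2243 and 2202 against 2105, 2201 and 2093 bases, where 2202 and 2201 almost touched. Nfkb1 was at 2914, 2946 and 2859 against 3083, 2980 and 3052 bases. Nfkbib was at 1251, 1249 and 1258 against 1262, 1266 and 1262 bases. For each of these genes the groups did not overlap and the exact two-sided permutation p was 0.1, the smallest possible. These p-values were not adjusted over genes. How many of all genes part in this way was not counted, so the number of such genes is not a result about the family. Rela ran from 2209 to 2325 bases in untreated and from 2037 to 2210 bases in rapamycin libraries, and these ranges met. The lengths of Nfkb2, Nfkbia, Nfkbie and Nfkbid overlapped between the groups as well, and that of Rel did not vary. Which isoforms these estimates stand for is not given in the gene tables.

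I-κB and subunit genes are themselves known targets of NF-κB, so the sequence just upstream of their starts was read for κB sites. RefSeq promoter windows of 250 bases before a transcript start (GRCm38.p6) were found for 8 of the 10 genes, 12 windows in all; Nfkb1 and Relb had none. The κB consensus GGGRNNYYCC (R is A or G, Y is C or T, N is any base) was searched on both strands, with overlapping matches counted apart. It was in 7 of the 12 windows and 5 of the 8 genes (Rel, Nfkb2, Nfkbia, Nfkbie and Nfkbid), and in 7.25% of all 32851 windows. The share of all genes with a match in any window was not counted. The Nfkb2 windows starting at 46304487, 46305445 and 46305680, each with a match, held 250, 167 and 234 exon bases of Nfkb2 or AC114539.1. The member windows were 54.8% to 77.6% G or C, beside a median of 52.4% over all windows. The 3 windows below are shown because the genes moved in different directions, Nfkbia up and Nfkbie and Bcl3 down, and capitals mark matches to the consensus. Each is written 5′ to 3′ on the gene's own strand and ends at the base before the start: Nfkbia at chr12:55492648-55492897 (minus strand), Nfkbie at chr17:45555450-45555699 (plus strand) and Bcl3 at chr7:19822756-19823005 (minus strand).
Nfkbia: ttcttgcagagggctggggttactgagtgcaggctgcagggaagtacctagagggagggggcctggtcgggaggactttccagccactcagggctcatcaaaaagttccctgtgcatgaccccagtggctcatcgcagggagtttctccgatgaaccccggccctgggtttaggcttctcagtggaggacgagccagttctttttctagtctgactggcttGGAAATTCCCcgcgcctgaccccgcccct
Nfkbie: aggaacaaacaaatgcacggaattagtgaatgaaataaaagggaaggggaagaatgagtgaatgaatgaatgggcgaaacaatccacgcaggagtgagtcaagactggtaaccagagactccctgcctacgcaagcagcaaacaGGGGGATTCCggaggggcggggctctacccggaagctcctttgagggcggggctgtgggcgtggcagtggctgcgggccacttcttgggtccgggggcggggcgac
Bcl3: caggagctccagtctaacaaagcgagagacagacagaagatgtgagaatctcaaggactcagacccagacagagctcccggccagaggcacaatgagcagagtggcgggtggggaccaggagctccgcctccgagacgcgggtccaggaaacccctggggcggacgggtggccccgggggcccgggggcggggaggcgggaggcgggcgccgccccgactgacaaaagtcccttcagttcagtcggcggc
The Nfkbia window held the match GGAAATTCCC with its first base 29 bases before the start, and the Nfkbie window GGGGGATTCC with its first base 106 bases before it. The Bcl3 window held no match to the consensus, and its last 15 bases lie in a Bcl3 exon of GENCODE. A match was thus present in Nfkbia, which rose, and in Nfkbie, which fell. The windows of Bcl3 and Nfkbib, which also fell, held none. Whether a match goes with the direction of change was not tested. Of the genes that did not pass the test, Rel held overlapping matches 92 and 91 bases before its start, and Nfkbid matches 226 and 181 bases before it. A match describes letters in this window and is not a measured binding site.

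Around the 10 genes, 76 of 80 other genes of the pathway on 5 lists were measured, and 25 were higher and 16 lower. This is 53.9% called, beside 47.4% of all genes, with a median log2 fold change of 0.05. With the length correction 19 were higher and 15 lower, 44.7% beside 38.4% of all genes, with a median of 0.03. The lists are described by their counts and shares alone and were chosen with results of these data known.

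**Figure D5:**
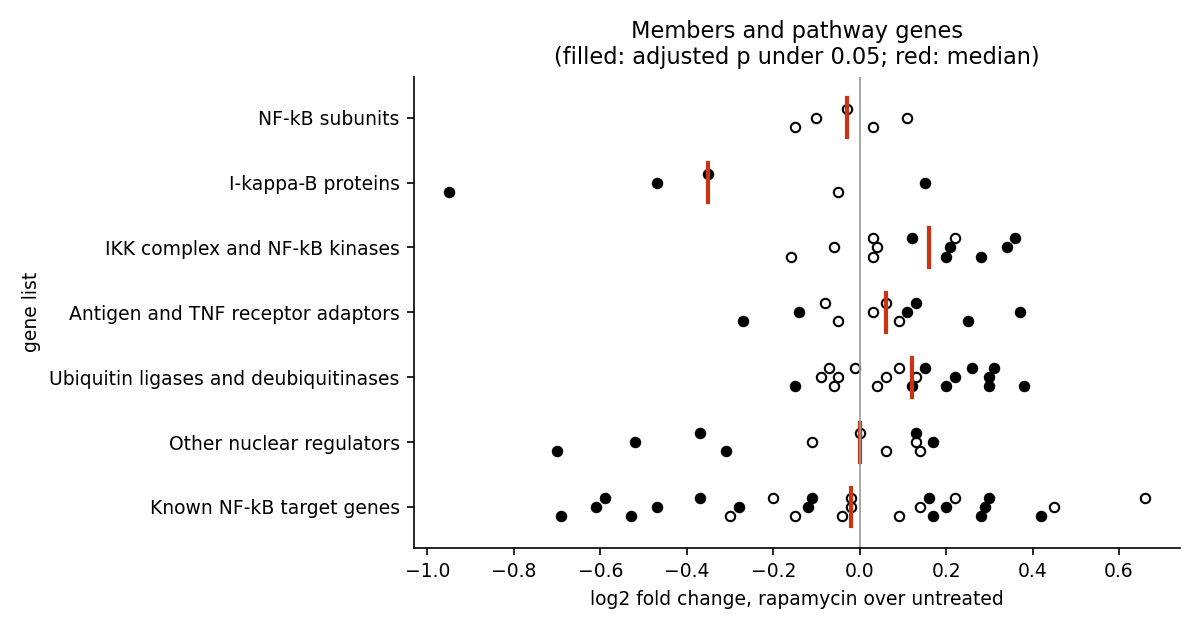
Log2 fold change, rapamycin over untreated (horizontal axis), of the measured genes of the 5 pathway lists and of the 2 member families (rows); each point is a gene, filled where it passed the adjusted p threshold of 0.05, and the red bar is the median of the row. The IKK row holds 6 genes called higher and 0 called lower, and the I-κB row 1 higher and 3 lower. Of all tested genes 24.1% were called higher and 23.3% lower.

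Of the 12 genes of the IKK kinases and their activators, 6 were called higher and 0 lower (median 0.16; 3 higher and 0 lower with the length correction, median 0.08). Ikbkb, the kinase subunit that marks classical I-κB proteins, was at 354, 348 and 336 CPM in untreated and 435, 445 and 435 CPM in rapamycin libraries. Ikbke, an IKK-related kinase, was at 415, 435 and 422 against 547, 536 and 549.9 CPM. Both groups of values were well apart, with log2 fold changes of 0.34 ± 0.03 and 0.36 ± 0.02 (adjusted p = 1.7e-17 and 4.4e-20, edgeR). Chuk, the kinase subunit of the alternative pathway, had a log2 fold change of 0.03 (adjusted p = 0.642), and Ikbkg, the regulatory subunit NEMO, one of -0.06 (adjusted p = 0.381). Map3k14, the kinase NIK that acts on Chuk, rose from 126 ± 1.39 to 145 ± 1.47 CPM (SD, n = 3; log2 fold change 0.20, adjusted p = 1.7e-05, edgeR), but with the length correction it was at 0.08 and not called (adjusted p = 0.0898). Tab2, an adaptor of the kinase TAK1, rose with a log2 fold change of 0.28, and 0.17 with the correction.

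Of the 11 adaptors and kinases that link the antigen and TNF receptors to IKK, 4 were called higher and 2 lower (median 0.06). With the length correction 4 were higher and 3 lower (median -0.07). The called share was 54.5% beside 47.4% of all genes, and 63.6% beside 38.4% with the correction. Bcl10, an adaptor that joins Malt1, fell from 52.7 ± 2.61 to 43.7 ± 2.17 CPM (SD, n = 3), a log2 fold change of -0.27 ± 0.07 (adjusted p = 5.6e-04, edgeR), and of -0.21 with the length correction (adjusted p = 0.00781). Malt1, the paracaspase, had a log2 fold change of 0.11 (adjusted p = 0.00352), which was -0.02 and not called with the correction (adjusted p = 0.604). Prkcq, the kinase PKCθ of antigen receptor signalling, rose by 0.25 on the log2 scale, and by 0.18 with the correction. Pdpk1, a kinase further upstream, rose by 0.37, but by 0.09 with the correction.

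Of 19 ubiquitin ligases, deubiquitinases and their adaptors, which tune IKK activity, 9 were called higher and 1 lower (median 0.12). With the length correction 5 were higher and 0 lower (median 0.06). Calls covered 52.6% of this list beside 47.4% of all genes, and 26.3% beside 38.4% with the correction. Tnfaip3, which encodes the feedback inhibitor A20 and is an NF-κB target, rose from 115 ± 0.783 to 133 ± 2.96 CPM (SD, n = 3; log2 fold change 0.20, adjusted p = 3.3e-05, edgeR), and was at 0.05 and not called with the length correction (adjusted p = 0.311). Its partners Tax1bp1 and Tnip1 rose by 0.38 and 0.30 on the log2 scale, and by 0.31 each with the correction. Cyld, a deubiquitinase that restrains IKK, rose by 0.30, and by 0.12 with the correction.

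Of 11 measured other regulators of NF-κB in the nucleus, 2 were called higher and 4 lower, with a median of 0.00 (2 and 4 with the length correction, median 0.01). These calls make up 54.5% in both fits, beside 47.4% of all genes, and 38.4% with the correction. Nfkbiz, the I-κBζ gene of the nuclear I-κB group, rose from 75.3 ± 2.68 to 85.1 ± 3.7 CPM (SD, n = 3; log2 fold change 0.17, adjusted p = 0.0039, edgeR), and was at 0.08 and not called with the length correction (adjusted p = 0.231). Pdlim2, a ligase that ends Rela activity, fell by 0.52 on the log2 scale, and by 0.31 with the correction. Commd1, which promotes the removal of Rela from chromatin, fell from 14.9 to 9.25 CPM on average, a log2 fold change of -0.70, and -0.41 with the correction. Rps3 and Akirin1 were also called lower, with log2 fold changes of -0.31 and -0.37, and of -0.20 and -0.38 with the correction.

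Of 27 measured known target genes, 7 were called higher and 9 lower, with a median of -0.02. This is 59.3% called, beside 47.4% of all genes. Traf1, a signalling adaptor, rose from 135 ± 6.38 to 181 ± 3.05 CPM (SD, n = 3; log2 fold change 0.42, adjusted p = 3.7e-15, edgeR). Irf1, an interferon-response transcription factor, fell from 322 ± 2.61 to 222 ± 12.6 CPM (log2 fold change -0.53, adjusted p = 1.1e-22). Ltb, a ligand that signals to NF-κB in stromal cells, rose from 717 to 799 CPM on average, and Cflar, an inhibitor of caspase-8, from 225 to 273 CPM. Besides Irf1, those called lower were Bcl2a1b, Bcl2l1, Ccr7, Cd83, Icam1, Myc, Tnf and Tnfrsf18, from -0.69 for Tnf to -0.11 for Myc. After the correction for length, Traf1 was at 0.47, Irf1 at -0.49, Ltb at 0.36 and Cflar at 0.22. With the length correction 7 targets were higher and 8 lower, 55.6% beside 38.4% of all genes.

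Bcl3, the member with the smallest adjusted p, was set beside the genes whose mean log2 CPM was 4 or more. Over the 6 libraries the log2 CPM of Mydgf (Pearson r = 0.9995), Arf5 (0.9987), Tgtp1 (0.9985) and Tpm3 (0.9976) were among the 5 that followed it most closely. With 3 libraries in each of 2 separate groups such values mainly restate the group difference, and 1284 of 7545 genes, 17.0%, had an r of at least 0.9. The log2 fold changes of these 4 genes, from -0.60 to -0.24, were all smaller than that of Bcl3.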

How the data were processed

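Poly(A) RNA of 6 samples was sequenced with a directional NEBNext kit, per the labels' protocols. The submitters' processing notes name STAR, RSEM and mm10, and their versions, annotation and strand setting are not given in the sources used here. The deposited tables hold, by their headers, RSEM expected counts, which divide shared reads and need not be whole, TPM, which the authors' pipeline scaled for effective length and depth, and transcript lengths. Genes with a count that was not whole (within 0.005) held 25.9% to 29.7% of a library. GENCODE vM21 gave symbols for 55227 of 55487 identifiers.

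Expected counts were rounded, filtered with filterByExpr, scaled by TMM and compared with edgeR's quasi-likelihood test (robust), adjusted over 11950 genes by the Benjamini-Hochberg method, threshold 0.05. The SE was the fold change's size over the square root of F. The length correction took as offsets a spline (5 degrees of freedom) of log2 length in each library, fitted to genes averaging 2 or more in log2 CPM. TPM shares and ratios were compared by exact two-sided permutation of libraries. The edgeR test and the length correction were also run on simulated counts, whose outcome is not reported here. The work used edgeR 4.0.16, DESeq2 1.42.0 and limma 3.58.1 in R 4.3.3, with figures drawn by matplotlib 3.10.9 under Python 3.11.15.

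The members and lists were chosen with earlier results of these data known. Named were all 10 members, the IKK, BCL10, MALT1, NIK, A20 and I-κBζ genes, up to 5 called genes of each list by smallest adjusted p, of which a selection is printed, and the 5 genes most like the leading member. Some of the genes named by it are not reported here. Of the marker lists, summed levels are printed. The rule also named the 2 most abundant markers of each other cell type, among them Cd79a (109.9 and 103 CPM) for B cells and Cebpb (26.4 and 18.0 CPM) and Cybb (19.7 and 16.8 CPM) for myeloid cells, untreated and rapamycin means. Clec9a, Pf4 and Ppbp were at 0 in all rapamycin libraries. In untreated libraries Clec9a reached at most 0.19 CPM and Pf4 and Ppbp at most 0.0951 CPM. These values lie below the floor of 3 counts, and the genes were not tested. The dendritic, NK, and erythroid and platelet lists summed to between 4.27 and 5.12, 69.8 and 73.3, and 9.89 and 14.1 CPM in untreated, and between 2.73 and 3.48, 68.4 and 69.7, and 7.10 and 8.01 CPM in rapamycin libraries. The 10 naive CD4 markers summed to between 6394 and 6480.2 CPM and between 6865 and 6949 CPM.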

Additional observations from a re-analysis of the deposited data

How the results depend on the processing

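The calls of Nfkbia, Nfkbib, Nfkbie and Bcl3 held in each of 18 alternatives per gene, with log2 fold changes from 0.10 to 0.34, -0.52 to -0.29, -0.39 to -0.27 and -0.99 to -0.70 and highest adjusted p-values of 0.0229, 0.00499, 0.0337 and 3.4e-04. Nfkb1 and Nfkbid were called in 0 of 18, Relb lower in 6, Nfkb2 lower in 5, Rela higher in 2 (both TPM fits) and Rel in 2, once in each direction. The number of members called lower was 5 with upper-quartile factors, with no composition factors, with no filter and with the length correction, and 3 to 5 when single libraries were left out (5 without the first untreated library), or 4 to 5 with the length correction as well. The number called higher was 2 in both limma fits on log2 TPM (pseudocounts 1 and 0.1) and 1 to 2 when single libraries were left out. The members' median log2 fold change was -0.12 with upper-quartile or no factors, 0.03 in both TPM fits, -0.14 with the length correction and -0.13 to -0.04 when single libraries were left out. All genes called lower numbered 1151 and 1137 in the TPM fits and 1801 with effective-length offsets, against 2785; called genes were 50.8% higher in the main comparison, 70.3% and 70.4% in the TPM fits, 42.5% with upper-quartile and 42.8% with no factors. With fixed lengths the subunit share differences were -0.164 points for Rela, -0.917 for Relb and 1.37 for Nfkb1.

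Some single values changed sign, and Rela and Rel were called after doing so. With effective-length offsets Ikbkg was at 0.20, Nfkb1 at -0.06 and Rela at 0.09. With the length correction Malt1 was at -0.02, Map3k7 at -0.03, Nfkb1 at -0.01, Nfkbid at 0.01 and Rel at -0.19 (-0.23, -0.21, -0.20, -0.18, -0.18 and -0.13 with single libraries left out). In the TPM fits Ikbkg was at 0.33 and 0.32, Nfkbid at 0.10, Rela at 0.20 (adjusted p = 0.0112 and 0.0111 by limma) and Relb at 0.01. With upper-quartile or no factors Chuk was at -0.01 and Nfkb1 at -0.02. With single libraries left out Chuk ranged from -0.02 (without the second rapamycin library) to 0.07, and Nfkbid from -0.11 to 0.04. The causes of these changes were not tested. The length correction with single libraries left out, and the other lengths for the I-κB shares, were added after seeing the data.

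The labels do not say whether same-numbered libraries of the 2 groups were paired. The correlations of their deviations were 0.0789, 0.0429 and 0.0222 over 7491 genes, and those of libraries with unlike numbers ran from -0.063 to 0.0313. Only the third untreated library correlated better with another number, at 0.0313 with the second rapamycin library. With the replicate number as a block 1 member was higher and 3 were lower, and 2850 genes were higher and 2743 lower. At these depths a gene near the floor of 3 counts could not be compared; the members held between 199 and 3397 counts per library.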
